A study of Mus musculus with 18 samples.

Results

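The genes described here are 41 sarcomere genes other than the myosin heavy chains: the light chains, the thin filament proteins, troponins, tropomyosins, thick filament and M-line proteins, and the proteins of the Z-disc with titin. They were chosen by symbol, with no threshold on measured values. All 41 were among the 48795 rows of the deposited count table, and 40 passed the filter on low counts together with 15436 genes in all. The gene left out, Myoz3, had 2 to 12 counts per library.

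The libraries came from C2C12 cells, a mouse myoblast line that fuses into multinucleated myotubes in low-serum medium, and poly-A RNA of such myotubes was sequenced in 18 libraries, 3 in each of 6 groups. Control myotubes received the vehicle, DMSO, and were taken at 36 h. A pair of groups received ginsenoside Rc (gRc), which is a ginseng saponin, over the whole 36 h, one at 10 µM and the other at 20 µM. The DEX group had vehicle for 12 h and then 200 µM dexamethasone, a synthetic glucocorticoid, for 24 h. The remaining pair (DEX + 10 µM gRc and DEX + 20 µM gRc) had the ginsenoside at that dose for the 12 h before the 24 h of dexamethasone. Time with ginsenoside may thus differ between groups with and without dexamethasone, 36 h against the 12 h named here. In comparisons of such groups, interactions included, this cannot be told apart from dexamethasone. All libraries therefore share the C2C12 background, a cell line of 1 origin grown without nerve or load, and the labels do not state whether replicates were separate cultures. Every p-value therefore reflects variation among these 18 libraries, which could be technical alone.

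A sarcomere is the repeating contractile unit of striated muscle, in which thin actin filaments anchored at the Z-disc slide along thick myosin filaments held together at the M-line. Calcium binding to the troponin complex moves tropomyosin along the thin filament and lets myosin heads bind. Many sarcomere proteins exist as slow, fast and cardiac or fetal isoforms, and cultured myotubes are known for expressing fetal and adult isoforms side by side.

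Library totals ran from 32350889 to 45388609 counts, and the 41 genes took 3.88% to 4.59% of them. They took 3.90% to 4.06% in control and 4.19% to 4.45% in DEX libraries. The second library of the 20 µM gRc group stood apart: 2.79% of its counts were mitochondrial, against 1.26% to 1.91% in the other 17, and its sarcomere genes lay off their group's values, with Mylpf low and Tnnt2 high. Calls over the 40 tested genes, and changes of genes named there, in comparisons with the 20 µM gRc group are given with and without that library. Markers of other cell types moved with dexamethasone: the 4 dividing-cell markers summed to 147 to 148 CPM (counts scaled to library size, with TMM composition factors) in control and 16.5 to 27.1 in DEX libraries, and 4 of 4 were called lower. The smooth muscle list summed to 2482 to 2500 against 1636 to 1844 CPM, with 4 of 4 tested markers lower. The fibroblast list summed to 4961 to 5455 against 2101 to 2561 CPM, with 4 lower and 1 higher of 5 tested. The adipocyte list summed to 0 to 0.0253 against 3.18 to 4.13 CPM, with 1 of 6 markers tested and that 1 higher. The cardiac muscle list summed to 63.4 to 74.7 against 68.7 to 77.0 CPM, with 1 higher and 1 lower of 5 tested. The undifferentiated myoblast list summed to 391 to 402 against 403 to 433 CPM, with 3 higher and 4 lower of 8, so single markers moved in opposite directions. The 10 markers of the myotube list all passed the filter on low counts. That list, which shares genes with the set described here, summed to 20117 to 20251 CPM in control and 20168 to 20837 in DEX libraries, which overlapped, with 6 markers higher and 2 lower of 10. In DEX against control, 20.6% of all genes tested were called higher and 23.2% lower. No marker of these lists was at 0 in every library. The part of these shifts in the results below was not tested, and in RNA from whole cultures fewer cells of a type and less RNA per cell cannot be told apart.

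The most abundant members in control myotubes were skeletal actin and the myosin light chains. Per kilobase of annotated transcript, the skeletal actin gene Acta1 was highest at 4142 ± 158 CPM per kb (SD, n = 3), followed by the fast regulatory light chain gene Mylpf at 3856 ± 379 and the fast essential light chain gene Myl1 at 3171 ± 78.1 CPM per kb. The control libraries of Acta1 and Mylpf overlapped, those of Mylpf and Myl1 did not. The slow and cardiac troponin C gene Tnnc1 followed at 2412 ± 85.7 CPM per kb and the embryonic and atrial light chain gene Myl4 at 1658 ± 74.4 CPM per kb. At the other end Tmod4, Myl3 and Myoz3 lay at 0.320, 0.319 and 0.0495 CPM per kb. In the order of the 41 levels, 11 of 40 neighbouring pairs overlapped between their control libraries. With dexamethasone the order changed by at most 8 places, which was the rise of Mybpc1 from place 34 to place 26. These levels use 1 principal transcript per gene, so a gene that uses a shorter or longer transcript is misplaced.

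**Figure D1:**
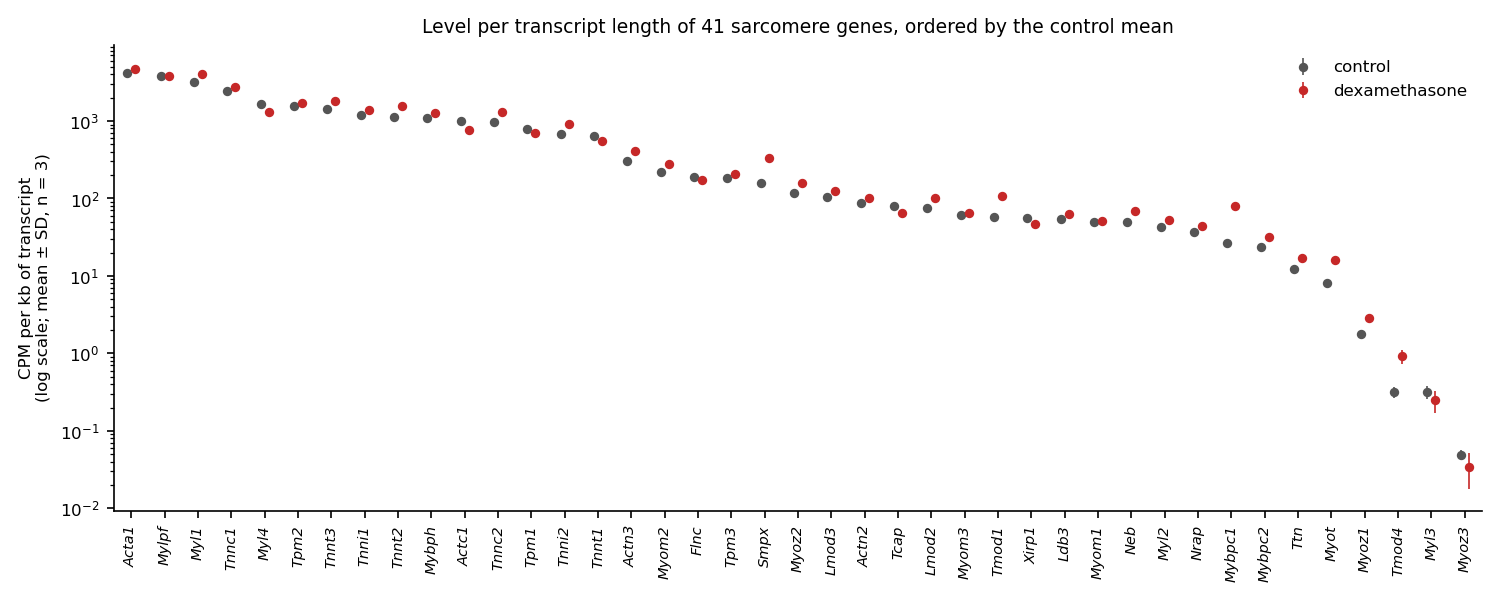
Level of the 41 genes per kilobase of principal transcript in control and DEX libraries (CPM per kb, log axis; points are means and whiskers SD, n = 3). The genes span from Acta1 at 4142 to Myoz3 at 0.0495 CPM per kb in control.

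Dexamethasone raised most of the tested sarcomere genes by a small amount and lowered a few. Against control, 26 of 40 were higher and 5 were lower (edgeR, adjusted p below 0.05). Over all genes tested, 20.6% were higher and 23.2% were lower. The median log2 change of the 40 genes was 0.26, beside -0.01 over all genes, and 6 of 40 moved past 1.5-fold. The DEX libraries lay wholly above the control libraries for 30 genes and wholly below for 6, where 59.3% of all genes did not overlap. The genes with the largest rises were Mybpc1, Smpx, Myot, Tmod1, Myoz1 and Neb among those of at least 1 on the log2 CPM scale, and the 5 that fell were Actc1, Myl4, Tcap, Tnnt1 and Tpm1. The second 20 µM gRc library is in neither group of this comparison. Leaving it out changes the shared estimate of spread, the scaling and the filter (15618 genes tested). In that fit 29 were higher and 6 lower, beside 51.9% of all genes called in either direction. The added genes were Tnnc1, Tnni1, Tpm2 and Xirp1.

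**Figure D2:**
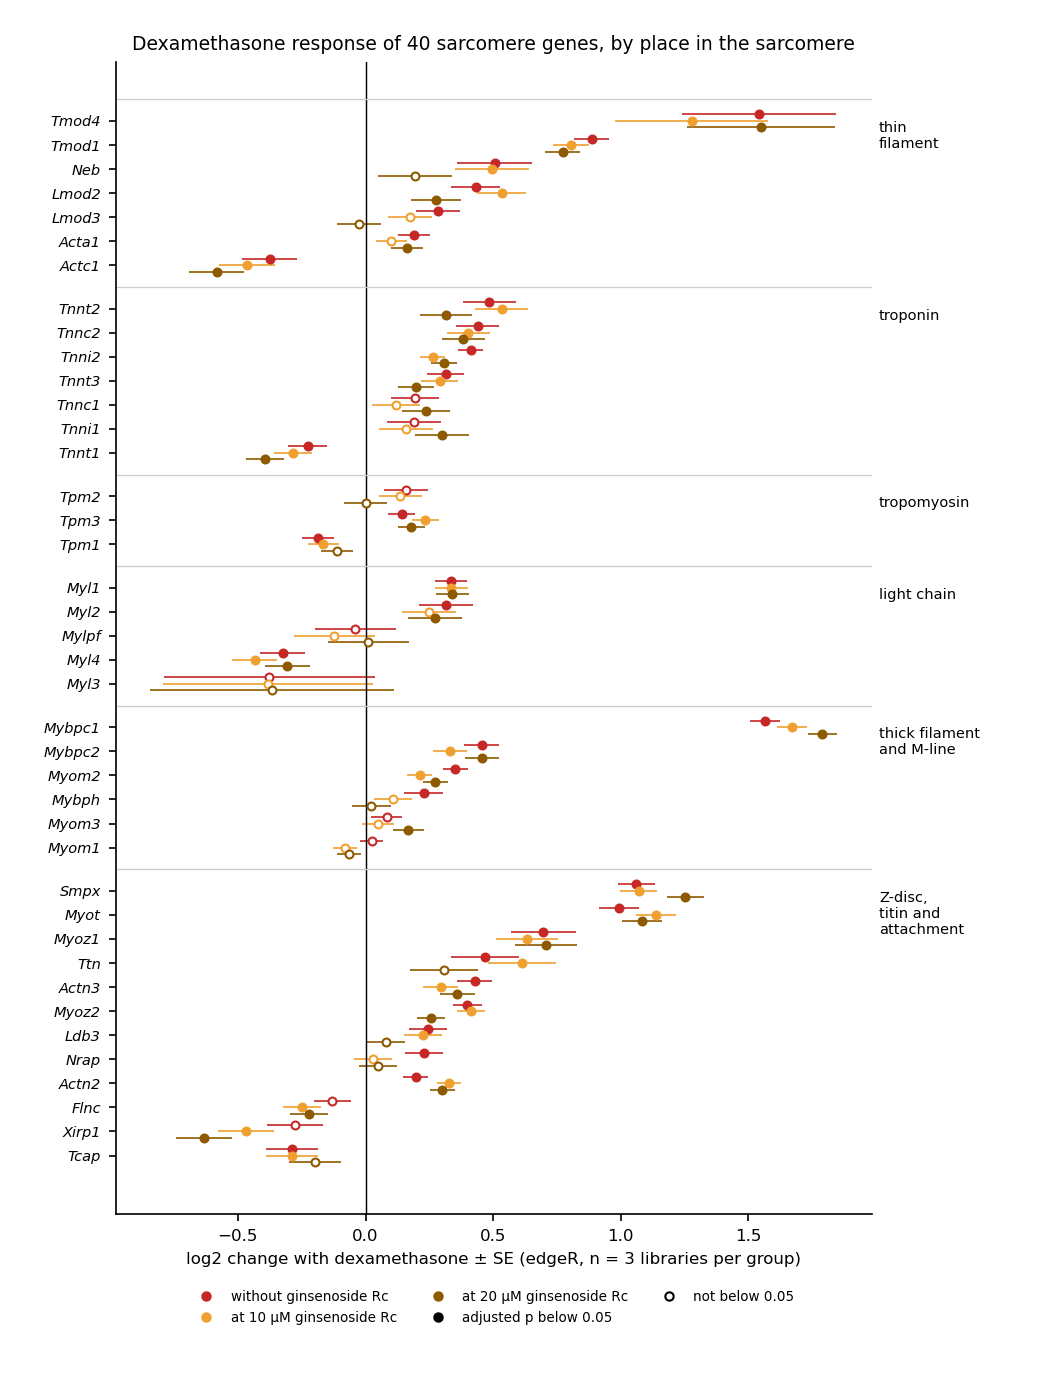
Log2 change with dexamethasone (± SE) of the 40 tested genes, ordered by role, in myotubes without gRc, with 10 µM and with 20 µM gRc; filled points passed an adjusted p of 0.05. Mybpc1, Smpx, Myot and Tmod1 lie to the right in all 3 comparisons, and Actc1 and Tnnt1 to the left.

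The promoters of Mybpc1 and Smpx, which had large rises, and of the actin pair, which moved apart, are shown because the results below turn on these genes. They are the 250 bases before the start that RefSeq gives on build GRCm38.p6, written 5′ to 3′ on the gene's strand. That start is the one of the principal GENCODE transcript for Mybpc1 and Smpx and lies 12 bases from it for Actc1 and 24 for Acta1. Other annotated transcripts of Actc1 and Smpx start further upstream, so the Actc1 window lies inside the gene's full interval and the Smpx window reaches into it. Capitals mark the motifs searched on both strands: the E-box CANNTG, its form CAGCTG preferred by myogenic factors (which is also counted as CANNTG), the CArG box, the MEF2 motif, the glucocorticoid half-site AGAACA and the full palindrome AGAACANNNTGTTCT. The Mybpc1 window lies at chr10:88605153-88605402 on the minus strand, Smpx at chrX:157698723-157698972 on the plus strand, Acta1 at chr8:123894776-123895025 on the minus strand and Actc1 at chr2:114052876-114053125 on the minus strand.
Mybpc1: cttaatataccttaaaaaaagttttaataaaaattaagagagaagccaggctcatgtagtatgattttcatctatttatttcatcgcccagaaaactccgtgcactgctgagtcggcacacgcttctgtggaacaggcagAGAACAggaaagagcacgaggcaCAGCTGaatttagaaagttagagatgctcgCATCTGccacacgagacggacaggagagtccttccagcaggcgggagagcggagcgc
Smpx: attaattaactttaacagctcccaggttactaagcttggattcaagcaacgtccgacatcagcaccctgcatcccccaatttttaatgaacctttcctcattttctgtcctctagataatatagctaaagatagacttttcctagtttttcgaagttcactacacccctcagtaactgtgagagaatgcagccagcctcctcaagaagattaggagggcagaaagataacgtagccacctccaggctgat
Acta1: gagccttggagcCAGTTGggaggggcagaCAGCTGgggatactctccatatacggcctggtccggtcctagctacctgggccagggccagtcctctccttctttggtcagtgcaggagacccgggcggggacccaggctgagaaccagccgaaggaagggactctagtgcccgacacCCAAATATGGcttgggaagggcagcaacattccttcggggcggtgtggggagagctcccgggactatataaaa
Actc1: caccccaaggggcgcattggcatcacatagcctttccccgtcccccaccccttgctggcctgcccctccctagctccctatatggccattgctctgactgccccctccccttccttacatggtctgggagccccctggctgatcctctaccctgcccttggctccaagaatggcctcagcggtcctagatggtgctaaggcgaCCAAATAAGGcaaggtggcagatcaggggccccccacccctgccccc
The Mybpc1 window held AGAACA at 110 to 105 bases before the start, CAGCTG at 87 to 82 and a further E-box at 57 to 52. The Acta1 window held a CArG box at 73 to 64 bases and the Actc1 window one at 47 to 38 bases before the start. The Smpx window held none of these letters, which says nothing about factors bound elsewhere.

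Of the 41 genes, 30 had such a window, and 22 of these lay within 100 bases of the principal transcript's start. CAGCTG was in 12 of 30 windows (40% against 13% of 32851 windows of all genes) and CANNTG in 80% against 66.2%. The CArG box was in 16.7% against 1.47% and the MEF2 motif in 10% against 2.92%. AGAACA was in 23.3% against 16.1%, and the full palindrome was in 0 of 30 windows and in 0.00913% of all. AGAACA was in 4 of the 18 windows of genes called higher with dexamethasone and in 1 of the 4 windows of genes called lower. These are letter matches and not binding sites.

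The thin filament genes moved together except for the cardiac actin gene. Of these, 6 of 7 rose and 1 fell, beside 20.6% and 23.2% of all genes. The median log2 change of the 7 was 0.43. Acta1 encodes skeletal muscle actin and Actc1 the cardiac actin that precedes it in development. Acta1 (chr8:123891769-123894751, minus strand) was at 5995, 6214 and 5757 CPM in the control libraries and at 6846, 6401 and 7256 CPM in the DEX libraries. The DEX libraries were all above the control libraries, by a small step (1.14-fold, log2 change 0.19 ± 0.06 SE, edgeR adjusted p = 0.019). Actc1 (chr2:114047282-114053548, minus strand) was at 1441, 1481 and 1481 CPM in control and at 1018, 1159 and 1216 CPM in DEX libraries. All 3 DEX libraries were lower, with the first the lowest (0.771-fold, log2 change -0.38 ± 0.11 SE, edgeR adjusted p = 0.0087). Both actin genes are overlapped on the other strand by another annotated gene, Gm20388 and A530058N18Rik.

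Tmod1 encodes tropomodulin, which caps the pointed end of the thin filament. It was at 187, 180.3 and 181 CPM in control and at 328, 340.4 and 344 CPM in DEX libraries. The groups were far apart relative to their spread (1.85-fold, log2 change 0.89 ± 0.07 SE, edgeR adjusted p = 7.2e-09). Its relative Tmod4 was at 0.373, 0.353 and 0.482 CPM in control and at 0.894, 1.31 and 1.31 in DEX libraries (log2 change 1.54 ± 0.30 SE, edgeR adjusted p = 0.00039), a rise at very low level. Neb encodes nebulin, the giant protein that runs along the thin filament. Its level was 1224, 978 and 1108 CPM in control and 1410.1, 1611 and 1678 CPM in DEX libraries. The groups did not overlap but each was scattered (1.42-fold, log2 change 0.51 ± 0.15 SE, edgeR adjusted p = 0.0096). Neb is overlapped on its own strand by Gm13521. The leiomodins, which promote growth of actin filaments, rose as well. Lmod2 went from 145, 145 and 153 to 188, 202 and 207 CPM (log2 change 0.43, edgeR adjusted p = 0.0014). Lmod3 went from 222, 229 and 239 to 276, 279 and 285 CPM (log2 change 0.28, edgeR adjusted p = 0.013), and neither gene's groups overlapped. Calls were lost for Neb without control replicate 2 (0.43, edgeR adjusted p = 0.05), for Lmod3 without control replicate 1 (0.26, 0.051), for Actc1 without DEX replicate 1 (-0.30, 0.054) and for Acta1 without control replicate 3 (0.17, 0.068) or DEX replicate 3 (0.15, 0.1). Without composition scaling Acta1 also lost its call (0.12, 0.15).

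**Figure D3:**
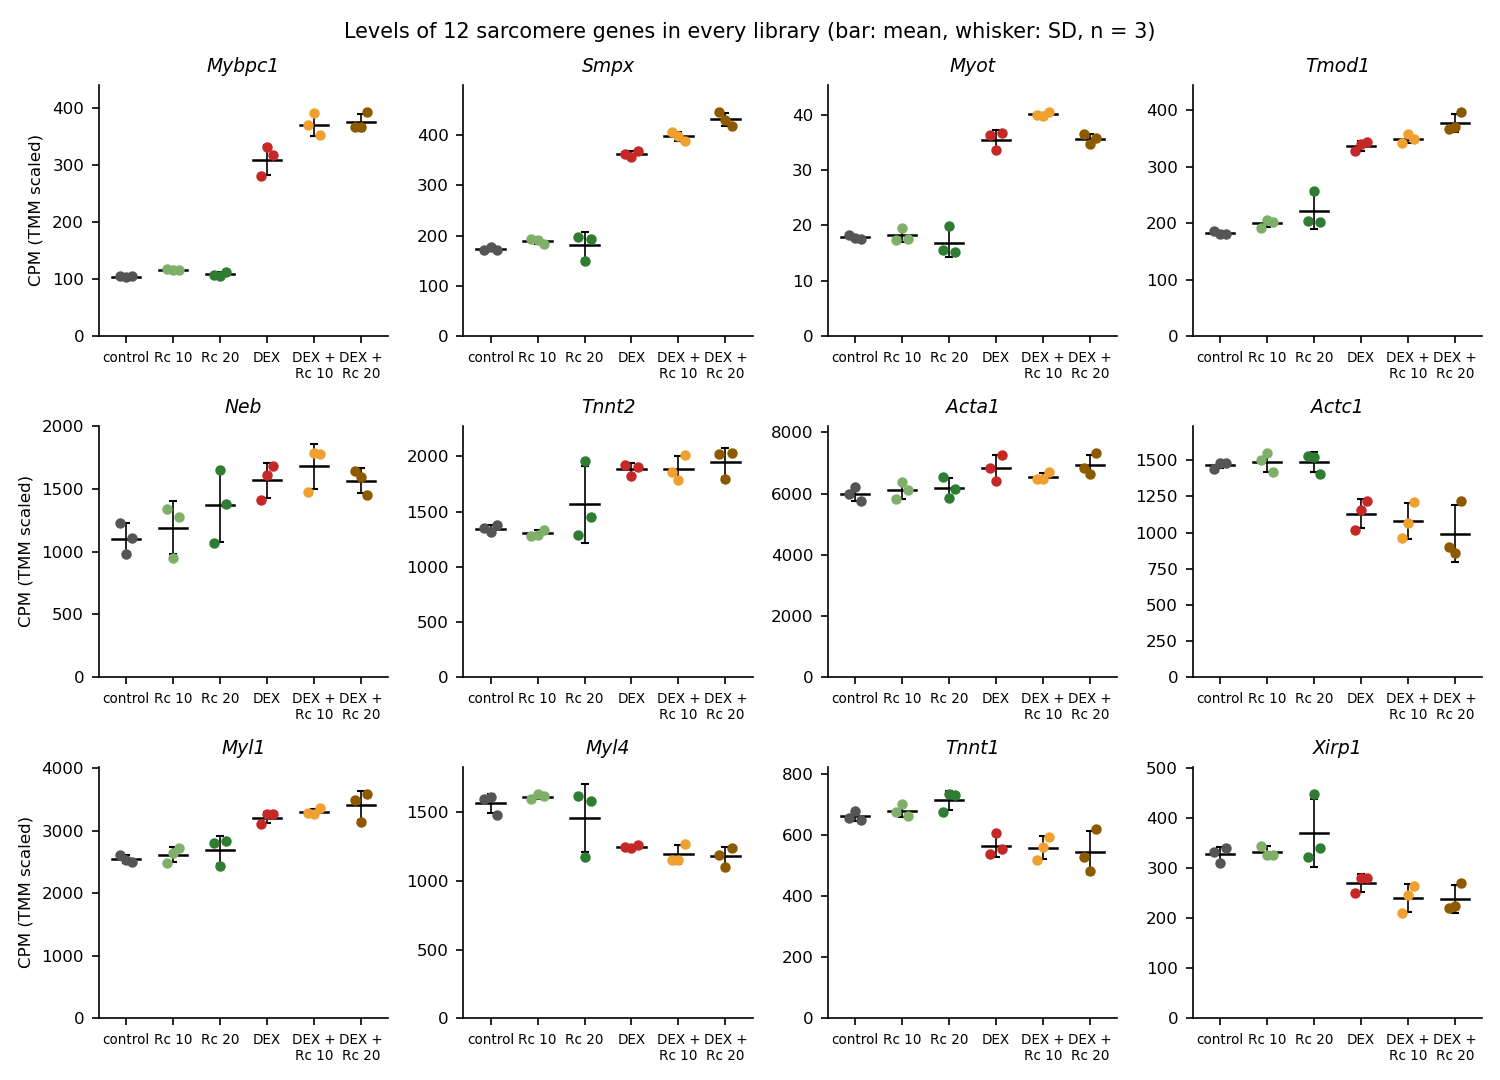
CPM of 12 sarcomere genes in each of the 18 libraries (points, replicates 1 to 3 from left to right in each group), with the group mean (bar) and SD (whisker). Mybpc1, Smpx, Myot and Tmod1 are higher in all 9 dexamethasone libraries than in all 9 others, and the second 20 µM gRc library is off its group for several genes.

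Troponin has 3 subunits: troponin C binds calcium, troponin I inhibits binding of myosin and troponin T ties the complex to tropomyosin. All 3 fast subunits rose with dexamethasone. The fast troponin C gene Tnnc2 was at 674, 726 and 639 CPM in control and at 916, 906 and 943 CPM in DEX libraries. The DEX libraries were all higher (1.36-fold, log2 change 0.44 ± 0.08 SE, edgeR adjusted p = 0.0003). Tnnc2 is overlapped on the other strand by Ube2c, a gene of dividing cells. The fast troponin I gene Tnni2 went from 528, 532 and 502 to 673, 731 and 674 CPM, again without overlap (1.33-fold, log2 change 0.41 ± 0.05 SE, edgeR adjusted p = 2e-06). The fast troponin T gene Tnnt3 went from 1499.8, 1452 and 1416 to 1757, 1791 and 1879 CPM, also without overlap (1.24-fold, log2 change 0.31 ± 0.07 SE, edgeR adjusted p = 0.0015).

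The slow subunits did not move as one. The slow troponin T gene Tnnt1 was at 657, 677 and 651 CPM in control and at 537, 606 and 553 CPM in DEX libraries. All 3 DEX libraries were lower (0.854-fold, log2 change -0.23 ± 0.08 SE, edgeR adjusted p = 0.02), and the call was lost without DEX replicate 1 (-0.19, edgeR adjusted p = 0.095), DEX replicate 3 (-0.21, 0.071) or control replicate 2 (-0.21, 0.067). The slow troponin I gene Tnni1 (log2 change 0.19, 95% interval -0.03 to 0.41, edgeR adjusted p = 0.16) and the slow and cardiac troponin C gene Tnnc1 (log2 change 0.19, 95% interval -0.01 to 0.39, edgeR adjusted p = 0.11) did not pass the test. Their values were 1373, 1447 and 1349.8 CPM in control and 1634, 1513 and 1609.5 CPM in DEX libraries for Tnni1, and 1764, 1784 and 1668 against 2035, 1907 and 2028 CPM for Tnnc1. In both genes the DEX libraries lay above the control libraries. Without the second 20 µM gRc library both passed (Tnni1 0.19, edgeR adjusted p = 0.00082, and Tnnc1 0.20, 0.00054). Both also passed with only the groups compared (Tnni1 0.19, edgeR adjusted p = 0.0021, and Tnnc1 0.20, 0.0018). The cardiac and fetal troponin T gene Tnnt2 rose with the fast genes, from 1347, 1314 and 1378 to 1922, 1821 and 1907 CPM. No libraries overlapped (1.40-fold, log2 change 0.48 ± 0.10 SE, edgeR adjusted p = 0.00088).

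Of the 3 tropomyosin genes 1 rose and 1 fell, beside 20.6% and 23.2% of all genes. Tpm1, the alpha isoform, was at 1520.2, 1479 and 1497 CPM in control and 1265, 1328 and 1357 CPM in DEX libraries. The DEX libraries were all lower by a small step (0.879-fold, log2 change -0.19 ± 0.06 SE, edgeR adjusted p = 0.02), and the call was lost without DEX replicate 1 (-0.16, edgeR adjusted p = 0.09), control replicate 1 (-0.18, 0.062) or control replicate 3 (-0.18, 0.057). Tpm3, the slow isoform, was called higher by a little (log2 change 0.14 ± 0.05 SE, edgeR adjusted p = 0.039), a call lost without any 1 of the 6 libraries compared (edgeR adjusted p from 0.058 to 0.12). Its log2 change was 0.07 (edgeR adjusted p = 0.22) without composition scaling and 0.15 (0.073) without the filter on low counts. Tpm3 shares 45.7% of its 100-base windows with the near copy Tpm3-rs7, so the split of reads between them is uncertain. Tpm2, the beta isoform, did not pass (log2 change 0.16, 95% interval -0.02 to 0.34, edgeR adjusted p = 0.14). It passed without the second 20 µM gRc library (0.16, edgeR adjusted p = 0.026) and with only the groups compared (0.16, edgeR adjusted p = 0.012).

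Myosin light chains wrap the neck of the myosin head, the essential chains next to the regulatory ones. The fast essential chain and the embryonic one moved in opposite directions. Myl1 was at 2617, 2525 and 2497 CPM in control and at 3104, 3262 and 3264 CPM in DEX libraries. All DEX libraries were higher (1.26-fold, log2 change 0.33 ± 0.06 SE, edgeR adjusted p = 0.00031), and 13.1% of the gene's 100-base windows are shared with the copy Mylf-ps. Myl4 was at 1597, 1611 and 1483 CPM in control and at 1247, 1239.9 and 1258 CPM in DEX libraries, which were close together and all lower (0.798-fold, log2 change -0.32 ± 0.09 SE, edgeR adjusted p = 0.0058). The slow regulatory chain gene Myl2 was at 38.7, 38.5 and 36.2 CPM in control and at 49.7, 44.3 and 47.2 CPM in DEX libraries. It was called higher (log2 change 0.32 ± 0.11 SE, edgeR adjusted p = 0.023), a call lost without DEX replicate 1 (0.28, edgeR adjusted p = 0.081), DEX replicate 3 (0.32, 0.051) or control replicate 3 (0.29, 0.069), and without composition scaling (0.25, 0.097). The fast regulatory chain gene Mylpf did not pass (log2 change -0.04, 95% interval -0.38 to 0.30, edgeR adjusted p = 0.87): its control libraries were 3087, 3153 and 2619.9 CPM and its DEX libraries 2744, 2891 and 2986 CPM, which overlapped. Myl3, the slow and ventricular essential chain gene, was near the limit of detection and did not pass (log2 change -0.38, edgeR adjusted p = 0.5).

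The largest log2 change among the 40 genes was in the thick filament. Mybpc1 (chr10:88518279-88605152, minus strand) encodes the slow form of myosin-binding protein C, which bridges thick and thin filaments. It was at 105, 103 and 105 CPM in control and at 280.0, 331 and 318 CPM in DEX libraries. The lowest DEX library was far above the highest control library (2.96-fold, log2 change 1.57 ± 0.06 SE, edgeR adjusted p = 2.4e-13). The fast form Mybpc2 went from 84.0, 84.7 and 85.9 to 121, 115 and 112 CPM, without overlap (1.37-fold, log2 change 0.45 ± 0.07 SE, edgeR adjusted p = 2e-05). Both rose, the slow form further. Among the myomesins, which link thick filaments at the M-line, Myom2 rose from 1103, 1103 and 1089.6 to 1322, 1488 and 1397 CPM without overlap (log2 change 0.35 ± 0.05 SE, edgeR adjusted p = 1.1e-05) while Myom1 (log2 change 0.02, 95% interval -0.07 to 0.12, edgeR adjusted p = 0.72) and Myom3 (log2 change 0.08, 95% interval -0.05 to 0.21, edgeR adjusted p = 0.3) did not pass. Mybph, a relative of myosin-binding protein C, was called higher by 0.23 (edgeR adjusted p = 0.021), a call lost without DEX replicate 2 (0.21, 0.066), DEX replicate 3 (0.20, 0.076), control replicate 1 (0.23, 0.051) or control replicate 2 (0.23, 0.054), and without composition scaling (0.16, 0.087).

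At the Z-disc and along titin, 9 of 12 tested genes rose and 1 fell (median log2 change 0.32), beside 20.6% and 23.2% of all genes. Smpx (chrX:157698910-157752591, plus strand) encodes a small X-linked muscle protein found at the cell's attachment sites. It was at 171, 177 and 171 CPM in control and at 363, 355 and 367 CPM in DEX libraries. The groups were far apart (2.09-fold, log2 change 1.06 ± 0.07 SE, edgeR adjusted p = 1.2e-09). Myot encodes myotilin, an alpha-actinin and filamin partner, and was at 18.2, 17.7 and 17.6 CPM in control and 36.3, 33.6 and 36.6 CPM in DEX libraries (1.99-fold, log2 change 0.99 ± 0.08 SE, edgeR adjusted p = 7e-09). Myoz1, a myozenin that tethers calcineurin at the Z-disc of fast fibres, was low in both groups, at 2.16, 2.60 and 2.08 CPM in control and 3.38, 4.03 and 3.72 in DEX libraries (1.62-fold, log2 change 0.70 ± 0.13 SE, edgeR adjusted p = 0.00019). All 3 genes were separated between the groups, and so was the related Myoz2, at 134, 147 and 139 and 181, 185 and 188 CPM (log2 change 0.40 ± 0.06 SE, edgeR adjusted p = 1e-05).

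Titin, encoded by Ttn, is the giant spring from Z-disc to M-line. Its control libraries were 1415, 1112 and 1215 CPM and its DEX libraries 1633, 1757 and 1790.0 CPM. The groups were scattered and did not overlap (1.38-fold, log2 change 0.47 ± 0.13 SE, edgeR adjusted p = 0.0086). The cross-linkers of the Z-disc, the alpha-actinins, both rose. Actn3, the fast form, went from 869, 913 and 842 to 1080.3, 1248 and 1200.2 CPM (log2 change 0.43 ± 0.07 SE, edgeR adjusted p = 4.8e-05). Actn2 went from 264, 264 and 265 to 293, 309 and 306 CPM, a smaller step (log2 change 0.20 ± 0.05 SE, edgeR adjusted p = 0.0027). Neither gene's groups overlapped. Ldb3 (Cypher, which binds alpha-actinin) and Nrap (a scaffold of early myofibrils) were called higher by 0.25 and 0.23 on the log2 scale (edgeR adjusted p = 0.012 and 0.017). The Ldb3 call was lost without control replicate 2 (0.22, edgeR adjusted p = 0.055), and the Nrap call without DEX replicate 2 (0.17, 0.11), DEX replicate 3 (0.21, 0.057) or control replicate 2 (0.20, 0.068), and without composition scaling (0.16, 0.071).

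The Z-disc genes with negative log2 changes were Tcap, Xirp1 and Flnc. Tcap encodes telethonin, which caps titin's end at the Z-disc, and was at 71.7, 80.3 and 72.4 CPM in control and at 60.1, 59.9 and 63.9 CPM in DEX libraries. The groups did not overlap (0.819-fold, log2 change -0.29 ± 0.10 SE, edgeR adjusted p = 0.028), and the call was lost without DEX replicate 1 (-0.27, edgeR adjusted p = 0.079), DEX replicate 2 (-0.27, 0.079) or control replicate 2 (-0.23, 0.12), and without the filter on low counts (-0.28, 0.064). Xirp1, an actin-binding protein of attachment sites and of injured fibres, was at 331, 311 and 341 CPM in control and at 249.6, 281 and 281 CPM in DEX libraries. Its libraries did not overlap and the adjusted p was just above the threshold (log2 change -0.28, 95% interval -0.51 to -0.04, edgeR adjusted p = 0.051). Xirp1 passed without the second 20 µM gRc library (-0.27, edgeR adjusted p = 0.017) and without composition scaling (-0.34, 0.011). With only the groups compared (-0.27, edgeR adjusted p = 0.00036) or with replicate numbers in the fit (-0.28, 0.038) it passed as well. Xirp1 is overlapped on its own strand by Cx3cr1. Flnc, which encodes the actin cross-linker filamin C, was at 1710.3, 1678 and 1617 CPM in control and 1414, 1647 and 1513 CPM in DEX libraries and did not pass (log2 change -0.13, 95% interval -0.29 to 0.03, edgeR adjusted p = 0.17).

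The balance of isoforms was taken for 13 pairs of these genes as a log2 ratio of counts in the same library (pseudocount 0.5). The DEX libraries lay wholly to one side of the control libraries in 13 of 13 pairs, and in 12 of 13 with a pseudocount of 5. Of all single genes tested, 59.3% did not overlap between these groups, and no share over other gene pairs was taken. The pairs are not independent, since Tnnt3 is in more than 1. Each pair has an exact two-sided permutation p of 0.1, the smallest that 3 against 3 libraries can give, and 0.1 after adjustment over 13 pairs, so no pair could pass 0.05. Acta1 over Actc1 was 2.06, 2.07 and 1.96 in control and 2.75, 2.47 and 2.58 in DEX libraries, a difference of 0.57 toward the skeletal gene. Per kilobase that is 4.16 to 1 in control and 6.16 to 1 in DEX libraries. Myl1 over Myl4 was 0.71, 0.65 and 0.75 in control and 1.32, 1.40 and 1.38 in DEX libraries, a difference of 0.66 toward the fast gene over the embryonic one. Per kilobase the ratio went from 1.91 to 3.02. Tnnt3 over Tnnt1 was 1.19, 1.10 and 1.12 in control and 1.71, 1.56 and 1.76 in DEX libraries, a difference of 0.54 toward the fast gene. In each of these 3 pairs the DEX libraries lay toward the adult fast or skeletal isoform.

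Other pairs lay the other way. Mybpc2 over Mybpc1, the fast over the slow form, was -0.32, -0.28 and -0.30 in control and -1.21, -1.52 and -1.50 in DEX libraries, a difference of -1.11. Mylpf over Myl2 differed by -0.35 and Tnnt3 over Tnnt2 by -0.17. The remaining fast-over-slow or adult-over-other pairs differed by 0.22 (Tnni2 over Tnni1), 0.25 (Tnnc2 over Tnnc1), 0.23 (Actn3 over Actn2) and 0.30 (Myoz1 over Myoz2). The last 3 pairs were Tmod4 over Tmod1 (0.62), Lmod3 over Lmod2 (-0.15) and Myom2 over Myom1 (0.33). By class, 7 of 8 fast genes rose and 0 fell, and 4 of 8 slow genes rose and 1 fell. Of the 5 cardiac or fetal genes 3 rose and 2 fell. Over all genes 20.6% rose and 23.2% fell. Median log2 changes of the fast, slow and cardiac or fetal genes were 0.42, 0.19 and 0.23, and the difference between classes was not tested.

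**Figure D4:**
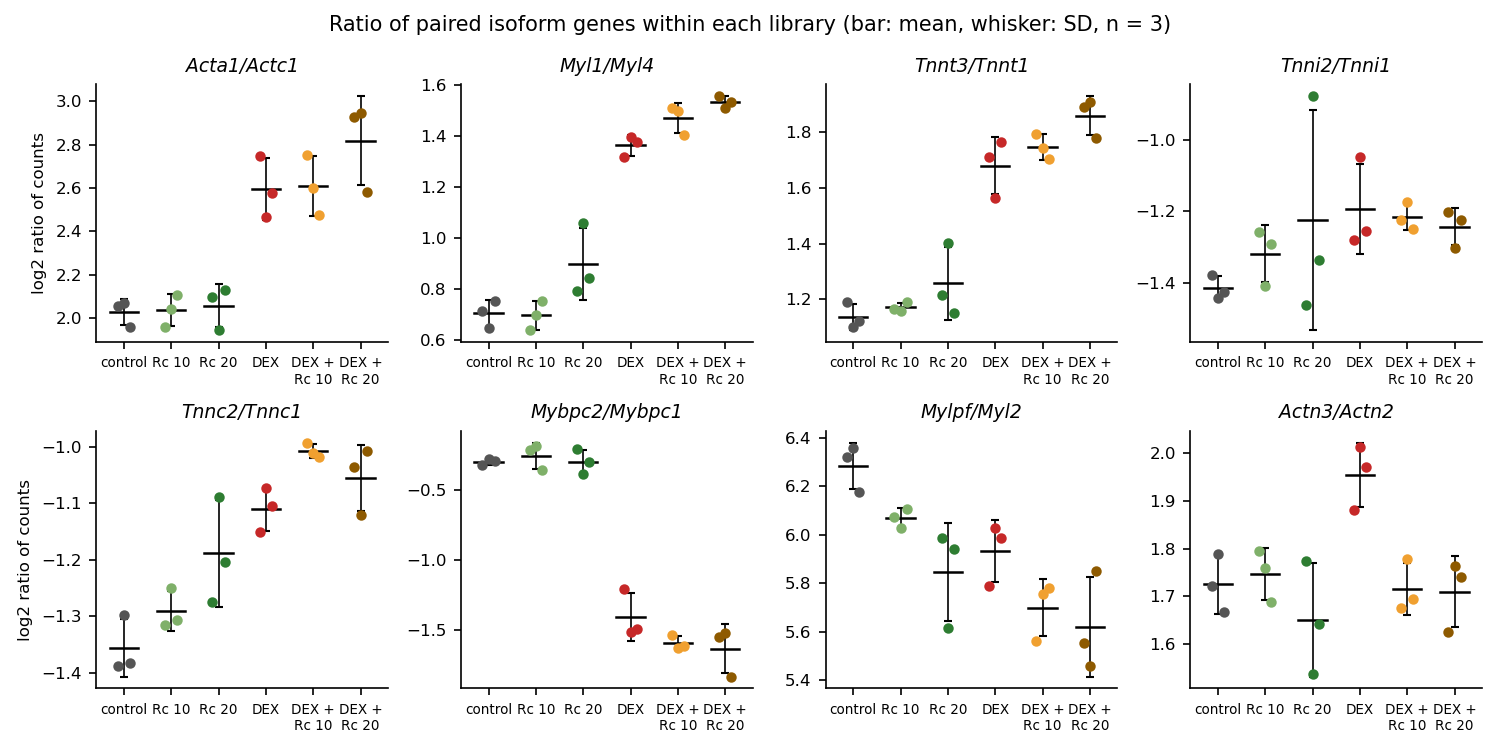
Log2 ratio of 8 isoform pairs in each library (points; bars are group means and whiskers SD, n = 3). The ratios of Acta1 over Actc1, Myl1 over Myl4 and Tnnt3 over Tnnt1 are higher in all DEX than in all control libraries, and that of Mybpc2 over Mybpc1 is lower.

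Dexamethasone also raised more sarcomere genes than it lowered in myotubes that had gRc. With 10 µM gRc in both arms, 21 genes were higher and 7 lower of 40, where 21.1% and 23% of all genes were; 26 genes lay wholly above and 8 wholly below, where 59.7% of all genes did not overlap. With 20 µM gRc in both arms, 23 were higher and 5 lower, where 23.5% and 25.4% of all genes were; 18 lay wholly above and 5 wholly below, where 50.1% of all genes did not overlap. The last counts were 27 and 8 without the second 20 µM library, where 65.8% of all genes did not overlap. The median log2 changes were 0.23 and 0.22, the latter 0.23 without that library. These 3 comparisons share no libraries, though they share the estimate of spread. Of the 31 calls without gRc, 83.9% were also called at 10 µM and 74.2% at 20 µM in the same direction, where over all genes 86.7% and 86.6% were. In turn 92.9% of the calls at 10 µM and 82.1% of those at 20 µM were called without gRc, where over all genes 85.9% and 77.5% were. The members' shares were 88.6% and 74.3%, and in turn 96.9% and 92.9%, when the second 20 µM library was left out. The shares over all genes were not taken for that fit, so these values have no background. By class, 7 of 8 fast genes rose and 0 fell at each dose. Of the 8 slow genes 3 rose and 1 fell at 10 µM and 6 rose and 1 fell at 20 µM (4 and 1 without the second 20 µM library, where 7 fast genes rose and 1 fell), and of the 5 cardiac or fetal genes 2 rose and 2 fell at each dose. In all 3 comparisons 18 of 40 genes rose and 3 fell, where 2518 and 2890 of all 15436 genes did. Without that library the members' counts were 21 and 5, and those over all genes were not taken. With all libraries, 0 members were called in opposite directions, as were 0 of all genes. With all libraries, 58.3% of the members called in any comparison were called in all 3 the same way, where over all genes 60.4% were. Without the second 20 µM library neither share was taken.

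Mybpc1, Smpx, Myot, Tmod1 and Myoz1 rose at both doses as well. Mybpc1 was at 117, 116 and 116 CPM with 10 µM gRc and at 369, 390.3 and 352 CPM with dexamethasone added (3.18-fold, log2 change 1.67 ± 0.06 SE, edgeR adjusted p = 9.4e-14). At 20 µM it was at 107, 105 and 113 CPM and at 366, 367 and 392 CPM with dexamethasone (3.46-fold, log2 change 1.79 ± 0.06 SE, edgeR adjusted p = 4.2e-14). The latter change was 1.77, edgeR adjusted p = 4.8e-17 without the second 20 µM library. In both pairs the groups were widely separated. Smpx was at 194, 191 and 184 CPM with 10 µM gRc and 405, 399 and 388 CPM with dexamethasone (log2 change 1.07 ± 0.07 SE, edgeR adjusted p = 1e-09), and at 198, 149.8 and 194 and 444, 429 and 418 CPM at 20 µM (log2 change 1.25 ± 0.07 SE, edgeR adjusted p = 1.2e-10). The second 20 µM library was the lowest of its group (without it 1.14, edgeR adjusted p = 2.4e-16), and every library with dexamethasone was far above. The log2 changes of Myot were 1.14 and 1.08 and those of Tmod1 0.81 and 0.77 (edgeR adjusted p from 1.1e-09 to 3.8e-08). With that library left out, the 20 µM changes were 1.22 and 0.90 (edgeR adjusted p = 2.1e-14 and 5.2e-14). Myoz1 rose by 0.63 and 0.71 (edgeR adjusted p = 0.00032 and 9.2e-05; 0.61, edgeR adjusted p = 0.00028 at 20 µM without that library).

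Neb and Ttn, the genes of the giant filaments, were called at 10 µM and not at 20 µM, with no interaction called for either. Both were lowest in replicate 2 of the control and of the 10 µM gRc libraries, so their changes are not independent. Neb went from 1341, 948 and 1279 to 1475, 1780.4 and 1776 CPM at 10 µM (log2 change 0.50 ± 0.15 SE, edgeR adjusted p = 0.011), a call lost without 10 µM gRc replicate 2 (0.36, 0.06) or with only the groups compared (0.49, 0.066). At 20 µM Neb did not pass, at 1071, 1651 and 1382 and 1645, 1597 and 1449.8 CPM (log2 change 0.19, 95% interval -0.12 to 0.50, edgeR adjusted p = 0.3; 0.35, edgeR adjusted p = 0.096 without the second 20 µM library). That library was the highest of its group. Ttn rose at 10 µM, where its libraries went from 1409, 925 and 1314 to 1738, 2019 and 1823 CPM (log2 change 0.61 ± 0.13 SE, edgeR adjusted p = 0.0011), a call lost when only the groups compared were fitted (0.61, 0.05). At 20 µM Ttn did not pass, at 1225, 1389.5 and 1546 and 1852, 1807 and 1494 CPM with overlapping groups (log2 change 0.31, 95% interval 0.03 to 0.59, edgeR adjusted p = 0.067). Without the second 20 µM library its change was 0.31 (edgeR adjusted p = 0.17). Ttn was called higher at 20 µM without DEX + 20 µM gRc replicate 3 (0.40, edgeR adjusted p = 0.031) or 20 µM gRc replicate 3 (0.39, 0.039). Mybpc2 rose at 20 µM from 92.6, 80.5 and 91.2 to 125, 128 and 109.8 CPM (log2 change 0.46 ± 0.07 SE, edgeR adjusted p = 1.7e-05; 0.40, edgeR adjusted p = 1.2e-05 without that library).

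Actc1 and Tnnt1 fell at both doses. Actc1 was at 1499, 1546 and 1416 CPM with 10 µM gRc and 959.8, 1064 and 1208 CPM with dexamethasone (log2 change -0.46 ± 0.11 SE, edgeR adjusted p = 0.0017), and at 1529, 1523 and 1407 and 897, 859 and 1219 CPM at 20 µM (log2 change -0.58 ± 0.11 SE, edgeR adjusted p = 0.00021; -0.56, edgeR adjusted p = 0.0036 without the second 20 µM library). Dexamethasone libraries were lower throughout, and replicate 3 of DEX + 20 µM gRc was the least lowered. Tnnt1 changed by -0.28 and -0.39 on the log2 scale (edgeR adjusted p = 0.0047 and 0.00028; -0.37, edgeR adjusted p = 0.00088 at 20 µM without that library). Myl4 fell from 1595, 1629 and 1617 to 1154, 1155 and 1272 CPM at 10 µM (log2 change -0.43 ± 0.09 SE, edgeR adjusted p = 0.00053). At 20 µM its libraries were 1621, 1172 and 1581 and 1192, 1104 and 1238 CPM, and the second 20 µM gRc library lay among those with dexamethasone (log2 change -0.31 ± 0.09 SE, edgeR adjusted p = 0.0075). Without that library the change was -0.44, edgeR adjusted p = 1.6e-07, and with only the groups compared the call was lost (-0.31, 0.099). The fall of Tcap at 10 µM (log2 change -0.29 ± 0.10 SE, edgeR adjusted p = 0.027) was lost without 10 µM gRc replicate 1 (-0.28, 0.066) or 2 (-0.24, 0.11) and without DEX + 10 µM gRc replicate 1 (-0.28, 0.07) or 2 (-0.26, 0.084). The second of these 10 µM gRc libraries was the highest of its group. Without the filter on low counts the Tcap call was lost as well (-0.28, edgeR adjusted p = 0.069). Tpm1, also called lower at 10 µM, lost its call without any single library of either group (edgeR adjusted p from 0.059 to 0.14). It also lost its call without the filter (-0.15, edgeR adjusted p = 0.073).

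Xirp1 and Flnc were called lower at both doses. Without gRc Flnc was uncalled, and Xirp1 was just above the threshold and passed in some refits. Xirp1 was at 345, 326 and 327 CPM with 10 µM gRc and 209.7, 246 and 265 CPM with dexamethasone (log2 change -0.47 ± 0.11 SE, edgeR adjusted p = 0.0019), and at 321, 447 and 341 and 221, 224 and 271 CPM at 20 µM (log2 change -0.63 ± 0.11 SE, edgeR adjusted p = 0.00012). Its second 20 µM library, at 447 CPM, was the highest of the 18, and without it the change was -0.47, edgeR adjusted p = 0.00092. Flnc changed by -0.25 and -0.22 (edgeR adjusted p = 0.011 and 0.019), calls lost without DEX + 10 µM gRc replicate 1 (-0.21, 0.059) or 10 µM gRc replicate 1 (-0.18, 0.085), and at 20 µM without DEX + 20 µM gRc replicate 1 (-0.20, 0.072) or 20 µM gRc replicate 3 (-0.14, 0.12), or with only the groups compared (-0.23, 0.093). The 20 µM change was -0.26, edgeR adjusted p = 0.0043 without the second 20 µM library.

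The library that stood apart decided some calls at 20 µM. Without it 21 genes were higher and 7 lower, beside 51% of all genes called in either direction; with 10 µM gRc in both arms the counts without it were 25 and 7, beside 52.6%. At 20 µM, Acta1 (0.13, edgeR adjusted p = 0.07), Tnnc1 (0.09, 0.15), Myl2 (0.12, 0.14) and Myom3 (0.10, 0.11) lost their calls without it. Lmod3 (0.14, 0.017) and Ldb3 (0.21, 0.0011) were then called higher, and Mylpf (-0.23, 0.0092) and Tcap (-0.34, 0.00014) lower. With the library the estimates of Mylpf and Lmod3 had the other sign, at 0.01 and -0.03, uncalled. Mylpf, at 3327, 1786 and 3292 CPM in the 20 µM libraries and 2894, 2582 and 2993 CPM with dexamethasone, was the plainest case, since its second 20 µM library was below all others. The genes called at 20 µM whose groups overlapped were Myl2, Myl4, Tnnt2, Tnnt3, Tpm3 and Lmod2.

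Without dexamethasone, gRc gave no sarcomere gene that passed the test. At 10 µM against control, 0 of 40 passed (edgeR; 8 at an unadjusted p below 0.05, as were 2.55% of all genes), where 0.00648% of all genes were higher and 0% lower. The median log2 change was 0.05, 35 of 40 changes were above 0, and 13 genes had libraries wholly above control, where 12.1% of all genes did not overlap. At 20 µM against control, 0 passed (10 unadjusted, as were 9.29% of all genes), where 0.013% were higher and 0.0907% lower; the median was 0.08, 31 changes were above 0, and 9 genes lay wholly above, where 11.7% of all genes did not overlap. Without the second 20 µM library the median was 0.105, 34 changes were above 0, and 22 genes lay wholly above and 1 wholly below, where 24.9% of all genes did not overlap. The sign of 8 uncalled estimates, Mylpf among them (-0.08 with the library and 0.16 without), differed between the fits. Both doses are set against the same control libraries, so their counts above 0 are not independent. The gRc medians and counts above 0, here and with dexamethasone, are given without values over all genes and so have no background. DESeq2, whose share over all genes was not taken, called 0 members at 10 µM and 1 at 20 µM, Tmod1 (205, 257 and 202 CPM against 187, 180.3 and 181 in control). The second 20 µM library is the highest of those values, and without it edgeR gave 0.15 (adjusted p = 0.15) beside 0.28 (0.16) with it.

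Myl2, the slow regulatory light chain gene, turned on the library that stood apart. It was at 38.7, 38.5 and 36.2 CPM in control, 45.2, 45.5 and 45.2 CPM at 10 µM and 52.5, 36.4 and 53.6 CPM at 20 µM. All 3 libraries at 10 µM were higher than control, and 2 of 3 were at 20 µM, the second being the exception. The log2 changes were 0.26 (edgeR adjusted p = 1) and 0.33 (edgeR adjusted p = 0.34). Without that library the change at 20 µM was 0.49 (edgeR adjusted p = 0.00023), the 1 member called, beside 0.282% of all genes in either direction; at 10 µM 0 were called, beside 0.0192%. Tested with only the groups compared, Myl2 was also called at 10 µM (0.26, 0.027).

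With dexamethasone in both arms, 10 µM gRc gave 0 calls of 40 with edgeR (4 unadjusted, as were 3.85% of all genes). By edgeR 0.00648% of all genes were higher and 0.0194% lower. DESeq2 called 2 members, Actn2 and Mybpc1, and its share over all genes was not taken. The median was 0.02, and 8 genes lay wholly above DEX, where 10.8% of all genes did not overlap. At 20 µM, 2 of 40 genes were higher and 0 lower (6 unadjusted, as were 8.75% of all genes), where 0.117% of all genes were higher and 0.253% lower; 8 lay wholly above and 2 wholly below, where 14.9% of all genes did not overlap. The genes called by edgeR were Actn2 and Mybpc1. DESeq2 called these and Smpx, again without its share over all genes. Actn2 (chr13:12269426-12340760, minus strand) was at 293, 309 and 306 CPM in DEX libraries, 351, 355 and 366 CPM with 10 µM gRc and 361, 333 and 383 CPM with 20 µM gRc. All 6 libraries with gRc were above all 3 without (log2 change 0.24 ± 0.05 SE, edgeR adjusted p = 0.25 at 10 µM and log2 change 0.25 ± 0.05 SE, edgeR adjusted p = 0.03 at 20 µM). Without dexamethasone Actn2 was at 264, 264 and 265 CPM in control, 279, 293 and 282 CPM at 10 µM and 284, 296 and 294 CPM at 20 µM, also without overlap, and uncalled (edgeR adjusted p = 1 and 0.39; at 20 µM 0.13, edgeR adjusted p = 0.4 without the second library).

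Mybpc1, already raised by dexamethasone, was higher again with gRc: 280.0, 331 and 318 CPM in DEX libraries against 369, 390.3 and 352 CPM at 10 µM and 366, 367 and 392 CPM at 20 µM. All 6 libraries with gRc were above the 3 without, and only the 20 µM comparison passed (log2 change 0.26 ± 0.06 SE, edgeR adjusted p = 0.34 at 10 µM, log2 change 0.28 ± 0.06 SE, edgeR adjusted p = 0.036 at 20 µM). Both 20 µM calls were lost on leaving out single libraries. For Actn2 these were DEX replicate 1 (0.22, edgeR adjusted p = 0.083), 2 (0.26, 0.12) or 3 (0.25, 0.11) and DEX + 20 µM gRc replicate 1 (0.24, 0.16) or 3 (0.20, 0.051). For Mybpc1 they were DEX replicate 1 (0.21, 0.086) or 3 (0.30, 0.097) and DEX + 20 µM gRc replicate 1 (0.29, 0.14), 2 (0.29, 0.14) or 3 (0.25, 0.058). In these refits the log2 changes stayed between 0.20 and 0.30. With only the groups compared both calls were lost (Actn2 0.24, 0.075; Mybpc1 0.27, 0.075) and Smpx was called instead (0.25, 0.028), and without composition scaling the Mybpc1 call was lost (0.27, 0.059). Without the second 20 µM gRc library, 5 genes were called higher with 20 µM (Actn2, Mybpc1, Smpx, Tmod1 and Myl2), beside 2.18% of all genes, and 2 with 10 µM (Actn2 and Mybpc1), beside 0.096%. That library is in neither arm of these comparisons. Leaving it out changes the shared estimate of spread, the scaling and the filter (15618 genes tested). Without DEX + 20 µM gRc replicate 3, Actc1 was called lower at 20 µM (-0.36, 0.048).

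**Figure D5:**
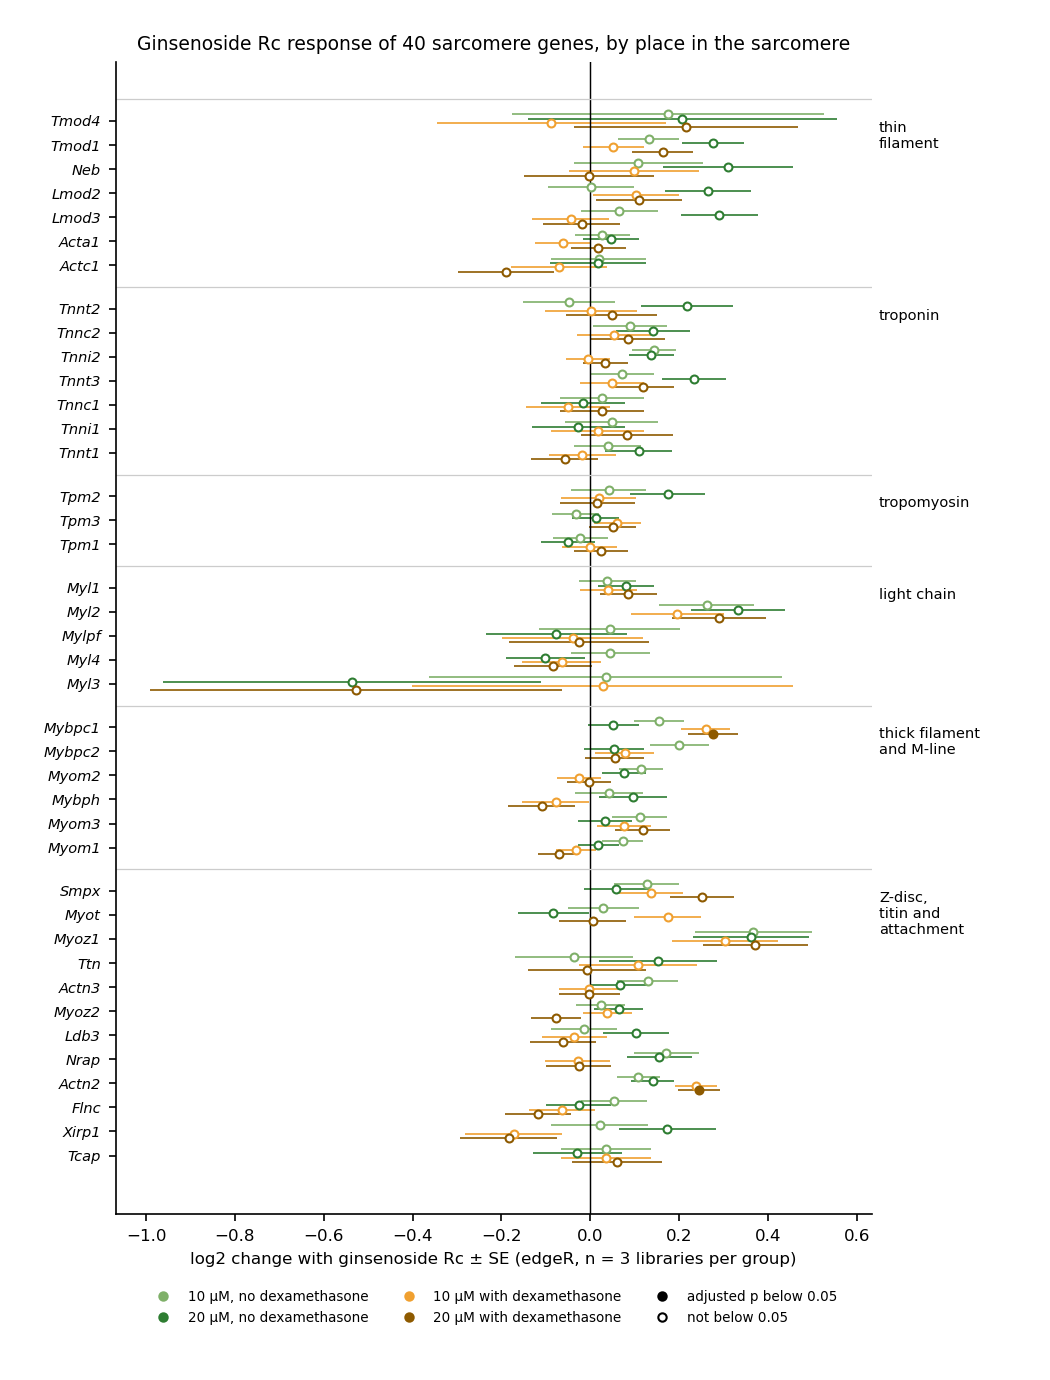
Log2 change (± SE) of the 40 tested genes with gRc, at 10 and 20 µM, without and with dexamethasone; filled points passed an adjusted p of 0.05. Only Actn2 and Mybpc1 at 20 µM with dexamethasone are filled.

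The balance of several isoform pairs lay apart with gRc in the presence of dexamethasone, the alpha-actinins among them. Actn3 over Actn2 was 1.88, 2.01 and 1.97 in DEX libraries, 1.67, 1.78 and 1.69 with 10 µM and 1.62, 1.76 and 1.74 with 20 µM gRc. The differences were -0.24 and -0.25, without overlap. Myoz1 over Myoz2 differed further the other way, by 0.27 and 0.45 toward the fast gene, which has low counts, also without overlap. Myl1 over Myl4 lay wholly higher at both doses (0.11 and 0.17). Mybpc2 over Mybpc1 (-0.19 and -0.23) and Lmod3 over Lmod2 (-0.15 and -0.13) lay wholly lower at both. Of 13 pairs, 7 did not overlap at each dose with dexamethasone and 3 did not at each dose without it (8 at 20 µM without the second library). Among all single genes, 10.8% and 14.9% did not overlap at 10 and 20 µM with dexamethasone. Without it 12.1% and 11.7% did not (24.9% at 20 µM without the second library). No share over other gene pairs was taken. No exact p could go below 0.1.

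The effect of dexamethasone was not shown to differ by gRc dose for any of the 40 genes. The interaction was called for 0 genes at 10 µM and for 0 at 20 µM, and 0% of all genes were called in either. At an unadjusted p below 0.05 there was 1 of 40 genes at 10 µM (2.12% of all genes) and 3 of 40 at 20 µM (5.28% of all genes). The gene at 10 µM was Tnni2. Those at 20 µM were Mybpc1 (0.22 on the log2 scale), Xirp1 (-0.36) and Lmod3 (-0.31), with an edgeR adjusted p of 0.88 for each. Without the second 20 µM library they were 0.21, -0.20 and -0.14 (edgeR adjusted p = 0.75, 0.93 and 0.83), and 13 of the 40 estimates at 20 µM had the other sign. Interaction estimates at 10 µM ran from -0.26 to 0.14.

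Lists of genes around the sarcomere are given beside the share over all genes, 20.6% higher and 23.2% lower against control. Of 36 genes for assembly, chaperoning and turnover of myofibrils, 16 rose and 8 fell against control, with the ubiquitin ligase genes Fbxo32 (1.62 on the log2 scale) and Trim63 (1.31) and the small heat shock protein gene Hspb7 (1.07) among the rises. The falls included Nebl (-0.73), the nebulin relative nebulette, and Ankrd1 (-0.63), which binds titin's spring region. Of the 8 myosin heavy chain genes 5 rose and 1 fell, the perinatal Myh8 by 1.44 and the fast Myh4 by 1.19 upward, and the embryonic Myh3 by -0.90, a fall. Of 19 tested muscle transcription factor genes 5 rose and 3 fell, with the myogenic factors Myf6 (2.14) and Myf5 (1.14) up and Vgll2 (-0.71) down. With 10 µM gRc in both arms the counts of these lists were 17 and 11, 4 and 1, and 5 and 2, beside 21.1% and 23% of all genes. At 20 µM they were 17 and 11, 4 and 1, and 5 and 6, beside 23.5% and 25.4%.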

How the data were processed

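Poly-A RNA of C2C12 myotubes was sequenced as strand-directional paired-end libraries on an MGI instrument, per the labels' protocols. The authors deposited 1 table of expected counts (estimated fragments per gene) for 48795 Ensembl gene IDs, and the submitters' processing notes name RSEM 1.3.3, STAR 2.7.3a, FastQC 0.11.9 and Trim Galore 0.6.5 with build GRCm38. The sources used here give no annotation release, strand setting or filter for the counting. Reads of overlapping genes therefore cannot be told apart (17 members overlap a gene on the other strand, 4 one on the same strand). Symbols came from GENCODE M21, which named 48349 IDs; the other 446 were kept.

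Expected counts were rounded (9.27% were not whole). Genes were filtered with filterByExpr and scaled by TMM, and edgeR's robust quasi-likelihood fit (edgeR 4.0.16, R 4.3.3) took the 18 libraries together, each group with its own mean. Calls use a Benjamini-Hochberg adjusted p of 0.05 over 15436 genes. Standard errors are the log2 change over the square root of F. The rule for named genes took up to 6 rises and 6 falls per comparison, called, without overlap and with a mean log2 CPM of at least 1; all members keep a value. There were 9 comparisons. Replicates of a group differed beyond counting noise, so none were merged. Alternatives were DESeq2 1.42.0, no composition scaling, no filter, only the groups compared, the replicate block, each library left out and, for ratios, a pseudocount of 5.

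The members and gene lists were chosen with earlier results of these data known. The fit without the second 20 µM gRc library was singled out after seeing the data. Each dose averaged over both dexamethasone states was also tested after the values were seen and is not reported.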

Additional observations from a re-analysis of the deposited data

How the results depend on the processing

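No called change reversed its direction under the alternatives run. Without the second 20 µM gRc library, uncalled estimates had the other sign for 2 members with dexamethasone at 20 µM (Mylpf and Lmod3, both then called), for 8 at 20 µM against control and for 13 in the 20 µM interaction. Members called with dexamethasone ranged, on leaving out each library in turn, from 24 to 35 without gRc, 24 to 32 with 10 µM and 20 to 28 with 20 µM; testing only the groups compared gave 17 at 20 µM. Calls kept under every alternative were 19 of 31, 22 of 28 and 17 of 28. Without composition scaling the median log2 changes were 0.20, 0.16 and 0.17, and leaving out libraries gave 0.22 to 0.25 at 10 µM and 0.19 to 0.25 at 20 µM. For gRc against control, testing only the groups compared called 1 member at 10 µM; at 20 µM DESeq2 called 1 and leaving out libraries 0 to 1. With dexamethasone in both arms, DESeq2 called 2 at 10 µM and 3 at 20 µM, leaving out libraries 0 to 2 and 0 to 5, and at 20 µM no composition scaling 1 (Actn2) and only the groups compared 1 (Smpx, not Actn2 or Mybpc1). Isoform pairs without overlap ranged from 3 to 6 at 10 µM and from 3 to 8 at 20 µM against control on leaving out libraries, and with a pseudocount of 5 were 12 of 13 for dexamethasone. With the replicate block, dexamethasone called 32, 28 and 28 members and 20 µM gRc with dexamethasone 2. The 21 pairs of same-numbered libraries had correlations from -0.37 to 0.46, with 8 above 0.1. The lowest involved the second 20 µM gRc library. Those of 10 µM gRc with control were 0.09, 0.20 and 0.12, and those of DEX + 10 µM gRc with DEX 0.46, 0.12 and 0.10. The main fit did not pair libraries by number, and a pairing is not excluded. The cause of the differences between fits was not tested. Shares over all genes were not taken for DESeq2 or for leaving out libraries other than the second 20 µM gRc library. Genes near 0, Myl3, Tmod4 and Myoz3, are limited by counts.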
